A study of Homo sapiens with 23 samples.

Results

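MYCN, LMO1, LIN28B, CCND1 and BARD1 are 5 genes known for their part in the growth of neuroblastoma, a childhood tumour of the sympathetic nervous system. They were examined here through the chromatin immunoprecipitation peaks listed around them in SH-SY5Y, an established human neuroblastoma line. The members are all peaks of 5 deposited lists that overlap 1 hg19 window per gene. The windows were chromosome 2 from 16030000 to 16140000 for MYCN, chromosome 11 from 8190000 to 8340000 for LMO1, chromosome 6 from 105350000 to 105580000 for LIN28B, chromosome 11 from 69400000 to 69520000 for CCND1 and chromosome 2 from 215540000 to 215730000 for BARD1. They held 31 of the 52708 listed peaks, and these merged into 20 regions. The windows are defined by position, but the genes were chosen with earlier results of these data known, so the values below describe these windows.

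Of the 23 samples of the series, 14 were immunoprecipitated and 9 are inputs, with 1 sample per group. Peak lists of 5 ChIP samples were used. They are LSD1 in cells with a control shRNA at B0 (day 0 of brain-derived neurotrophic factor, BDNF), LSD1 in cells with an shRNA against LSD1+8a at B0, LSD1 in control shRNA cells at B3 (day 3), LSD1+8a in control shRNA cells at B3 and SVIL in control shRNA cells at B3. Every group carried an shRNA, and the protocol describes 4 days of retinoic acid at 10 µM, followed by 3 days of BDNF at 50 ng/mL without serum. Cells at B0 were at day 0 of BDNF and had not had those 3 days. All values come from this 1 cell line, and none of the differences below has a replicate check. Intervals are exact 95% intervals, Poisson for numbers of peaks and binomial for shares, and cover counting error only.

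LSD1 (KDM1A) is a lysine demethylase that acts on histone H3 within corepressor complexes, and LSD1+8a is its neuronal splice isoform, made by inclusion of a small extra exon. SVIL (supervillin) binds actin and is listed in the series' design as acting together with LSD1+8a. MYCN is a MYC family transcription factor whose amplification marks aggressive neuroblastoma, although SH-SY5Y is not MYCN-amplified. LMO1 is a LIM-only transcriptional cofactor whose locus carries inherited neuroblastoma risk. LIN28B is an RNA-binding protein that blocks maturation of let-7 microRNAs, CCND1 (cyclin D1) drives entry into S phase with its kinase partners, and BARD1 is the partner of BRCA1 in a ubiquitin ligase.

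The lists ran from 1452 peaks for SVIL to 20748 for LSD1 of day 3 control cells, and no read totals were at hand. A shorter list can therefore not be told apart from a shallower library. Among the libraries used here, the titles of day 3 lack an end number that those of day 0 carry. What this number stands for is not stated, and which input sample served each list is not known. The only input of control cells at day 3 is titled for a set on H3K9me2, a histone mark. Day can therefore not be told apart from input or from any difference between libraries that the number may mark. No annotation of hg19 was used here, so peaks were not assigned to promoters, exons or introns. By gene order in RefSeq on GRCh38, the nearest protein-coding genes on either side are DDX1 and CYRIA for MYCN, RIC3 and STK33 for LMO1, HACE1 and POPDC1 for LIN28B, MYEOV and LTO1 for CCND1, and VWC2L and ABCA12 for BARD1. Gene order does not show whether such a neighbour lies partly or wholly inside a window in hg19, and this was not examined. A peak in a window was not assigned to the named gene rather than to one of these. Where a peak or region is said below to be at or of a gene, the gene's name stands for its window.

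More than 1 in 2 of the peaks lay at LMO1. Of the 31 peaks, 17 (54.8%) lay in the LMO1 window, 7 in CCND1, 3 in MYCN, 3 in LIN28B and 1 in BARD1. The LMO1 window spans 150 of the 800 kb. These numbers count a site once for each list that holds it, and of the 20 merged regions 8 lay at LMO1. LSD1 in control cells had 12 peaks in the windows at day 0 (6.20 to 21.0) and 12 at day 3 (6.20 to 21.0), and LSD1 in knockdown cells had 6 at day 0 (2.20 to 13.1). SVIL had 1 peak, at CCND1, and LSD1+8a had none. Per 1000 peaks of the whole list, the windows held 0.711 LSD1 peaks in control cells at day 0, 0.585 in knockdown cells and 0.578 in control cells at day 3. The lower number in knockdown cells thus went with a list of 10248 peaks against 16882 in control cells.

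**Figure D1:**
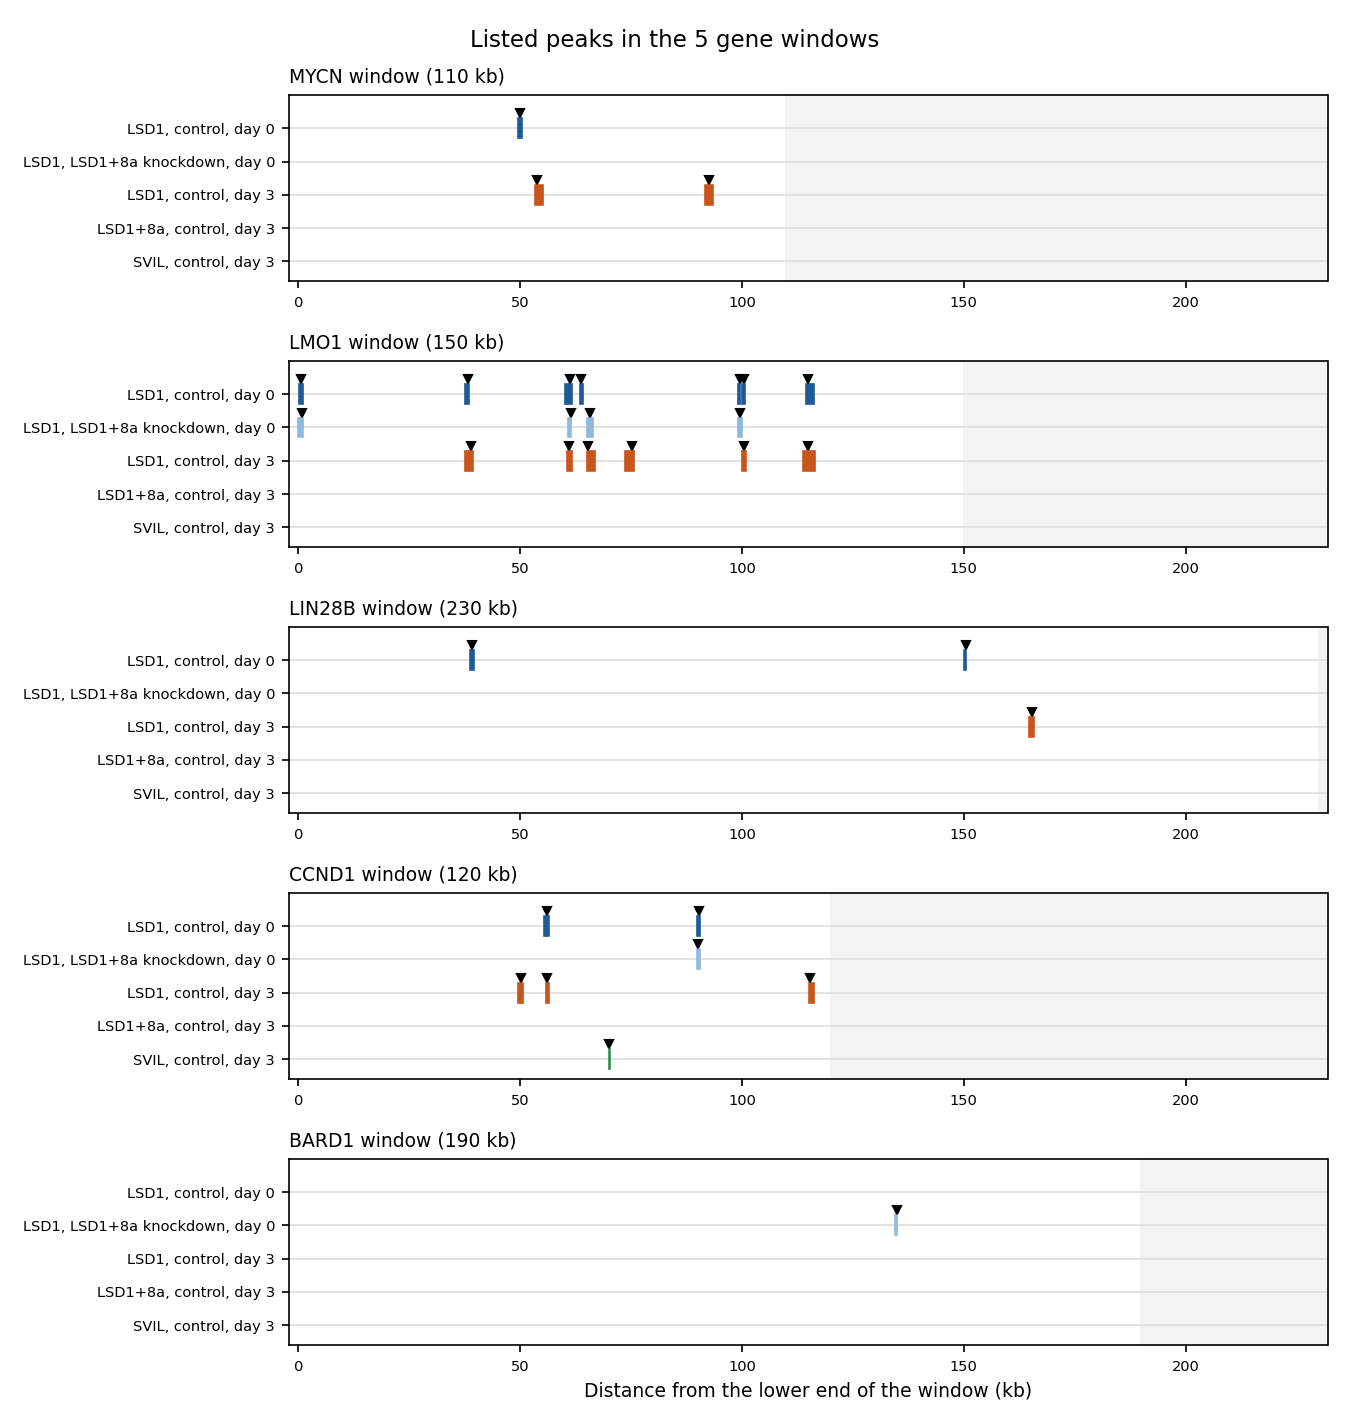
Map of the listed peaks in each window, with the distance in kb from the lower end of the window on the x axis and 1 row per list. Bars are peaks to scale with a thin outline, triangles are summits and grey marks positions beyond the window. LMO1 holds 17 peaks, the LSD1+8a row is empty in every window, and the only SVIL peak is at CCND1.

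As a background, the genome was cut into tiles as wide as each window and the peaks in each tile were counted. The tiles also cover stretches without genes, whereas each window was drawn around a gene, so they are not matched to it. At LMO1, a window of 150 kb, LSD1 had 7 peaks in control cells at day 0 (2.81 to 14.4), 4 in knockdown cells (1.09 to 10.2) and 6 in control cells at day 3 (2.20 to 13.1). The tile means were 0.868, 0.526 and 1.07. At least that many peaks were found in 0.599%, 1.74% and 1.76% of the 19533 tiles, respectively, and 26 tiles (0.133%) reached all 3 numbers, a joint count that was added after the single counts were seen. The LMO1 window, whichever genes its peaks belong to, thus stood near the top of the genome in number of LSD1 peaks of any score in each of the 3 LSD1 lists. Many of these peaks were weak. The score percentiles of the 17 LMO1 peaks within their own lists ran from 16.4 to 92.1, with a median of 46.8. Control peaks of day 0 at percentile 16.4, 27.2, 43.3, 43.8 and 46.5 were below the middle. So were knockdown peaks at 29.3, 37.4 and 46.8 and a control peak of day 3 at 30.8. Tiles were not compared on high scoring peaks alone.

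In the other windows the intervals of the counts, wide at such low numbers, held the genome-wide mean, although single counts lay above or below it. CCND1, 120 kb wide, had 2 LSD1 peaks in control cells at day 0, 1 in knockdown cells and 3 in control cells at day 3, numbers reached by 17%, 28.4% and 10.1% of tiles. MYCN, 110 kb wide, had 1 LSD1 peak in control cells at day 0 and 2 at day 3, reached by 37.8% and 19.9% of tiles, and none in knockdown cells, where 26.7% of tiles held at least 1. LIN28B, 230 kb wide, had 2 in control cells at day 0 and 1 at day 3, reached by 33.6% and 61.7% of tiles, and none in knockdown cells, where 43% of tiles held at least 1. BARD1, 190 kb wide, had 1 peak in knockdown cells, as 38.2% of tiles did, and none in control cells on either day, where 51.2% of tiles at day 0 and 56.9% at day 3 held at least 1. Without LMO1, the 4 other windows held 5 LSD1 peaks in control cells at day 0 (1.62 to 11.7), 2 in knockdown cells (0.242 to 7.22) and 6 in control cells at day 3 (2.20 to 13.1). Tile means of the same widths add up to 3.76, 2.28 and 4.63, which lie inside these intervals.

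**Figure D2:**
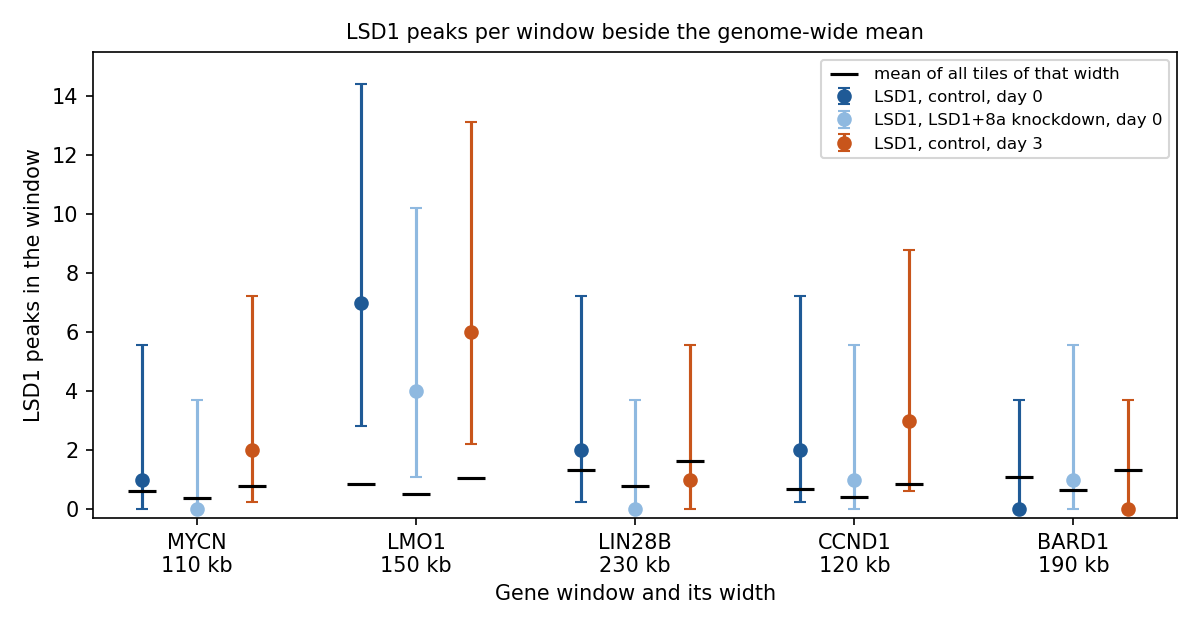
Number of LSD1 peaks (y axis) in each gene window (x axis, with its width), with points and exact 95% Poisson intervals for the 3 LSD1 lists and black dashes for the mean of all tiles of the same width. The LMO1 intervals lie above their dashes in all 3 lists, and the dashes lie inside the intervals of the other windows, which are wide at such low counts. Tile counts spread more than Poisson counts, with a mean of 0.868 and a maximum of 19 at the LMO1 width in control cells at day 0. The intervals therefore do not measure how rare a count is among tiles.

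LSD1+8a had no peak in any of the 5 windows, a count of 0 that allows up to 3.69 peaks. The tile means of the LSD1+8a list add up to 0.924 over the 5 widths, so at this list length the absence cannot be told from the average of the genome. Only 11% of tiles of the MYCN width, 14.4% of the LMO1 width, 20.5% of the LIN28B width, 11.9% of the CCND1 width and 17.4% of the BARD1 width held an LSD1+8a peak. The 2 LMO1 regions listed in all 3 LSD1 lists, described next, thus had no listed LSD1+8a or SVIL. The nearest LSD1+8a peaks lay 364 kb above the LMO1 window and 363 kb above the MYCN window. Those of CCND1 and BARD1 were 445 kb below and 1375 kb above their windows. At LIN28B the nearest was 41.9 kb below the window.

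At LMO1, LSD1 peaks formed 8 regions that together covered 13759 bp, 9.17% of the window, against 4.02% at MYCN, 3.4% at CCND1, 1.02% at LIN28B and 0.268% at BARD1. Of the 8 regions, 2 were in all 3 LSD1 lists, 4 were in 2 lists and 2 were in 1 list. Regions were merged through chains of overlapping peaks. In the region from 8289045 to 8290976, counted in all 3 lists, no single base was covered in all 3. The fold enrichment, tags (reads in the peak) and score given below are the authors' values for each peak, and a percentile is the share of peaks of the same list with that value or a lower one. Values of different lists are set side by side as listed and are not a measure of change in binding.

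The first region in all 3 LSD1 lists, on chromosome 11 from 8250106 to 8251698, had 57 tags at a fold of 10.8 in control cells at day 0, 28 tags at a fold of 5.49 in knockdown cells and 75 tags at a fold of 16.4 in control cells at day 3. By score it stood at percentile 82.7, 37.4 and 77.0 of these lists. By fold it stood at percentile 66.7, 5.95 and 45.9, so on day 3 it was above the middle of its list by score and below it by fold. The summit in control cells at day 0 lay 89 bp from that of day 3 and 157 bp from that of knockdown cells.

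The second, from 8289045 to 8290976, was a chain of 4 peaks rather than 1 site. Control cells at day 0 had a peak from 8289094 to 8289658 with 20 tags and another from 8290091 to 8290719 with 16 tags. The knockdown peak, from 8289045 to 8289936 with 22 tags, overlapped the lower of these, with summits 117 bp apart. The control peak of day 3, from 8289920 to 8290976 with 47 tags, overlapped the higher, with summits 188 bp apart. The knockdown and day 3 peaks shared only 17 bp, with summits 928 bp apart. The lists thus hold a pair of neighbouring sites in control cells at day 0, with the lower one listed in knockdown cells and the higher one in control cells at day 3. All 4 peaks stood below the middle of their lists by score, at percentile 43.3 and 43.8 for control cells at day 0, 46.8 for knockdown cells and 30.8 for control cells at day 3.

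On either day, the highest scoring LMO1 peak of control cells had no overlap in the knockdown list. That of day 0, from 8304545 to 8306245, had 50 tags, a fold of 12.5 and score percentile 91.3. It was listed at day 3 from 8303805 to 8306558, with 128 tags, a fold of 15 and percentile 85.0, and the summits lay 34 bp apart. That of day 3, from 8227501 to 8229461, had 114 tags, a fold of 30.8 and percentile 92.1. It contained a day 0 control peak from 8227602 to 8228566 with 23 tags, a fold of 7.99 and percentile 46.5, but the summits lay 852 bp apart. Over the whole list, 42.1% of control LSD1 peaks at day 0 overlapped a knockdown peak, and 3 of the 7 LMO1 peaks did so. At day 3 the share was 22.2% over the whole list, where a peak without a knockdown overlap was the more frequent kind, and 3 of 6 at LMO1. Both list shares cover peaks of all scores, and the share among high scoring peaks was not computed. The day 3 share also sets control cells at day 3 against knockdown cells at day 0, so day and knockdown are mixed in it.

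A region from 8254995 to 8256793 was listed in control cells at day 3 and in knockdown cells at day 0, but not in control cells at day 0. It had 102 tags, a fold of 18.4 and score percentile 87.0 at day 3, and 47 tags, a fold of 4.68 and percentile 29.3 in knockdown cells, with summits 462 bp apart. The fold in knockdown cells was at percentile 1.73 of that list. Control cells at day 0 had a weak peak beside it, from 8253389 to 8254098 with 21 tags and percentile 16.4, which ended 896 bp before the day 3 peak and 931 bp before the knockdown peak. Whether these form 1 domain therefore turns on the distance allowed between peaks.

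The highest scoring LMO1 peak of knockdown cells, from 8189994 to 8191139, had 41 tags, a fold of 10.5 and score percentile 84.3. It overlapped a control peak of day 0 from 8190142 to 8190942 with 28 tags, a fold of 7 and percentile 27.2, with summits 137 bp apart, and no day 3 peak. This region sits at the lower edge of the window, which the knockdown peak crosses by 6 bp. RIC3 is the neighbour on that side by gene order, and whether the region belongs to RIC3 or LMO1 was not examined. The last LMO1 region, from 8263748 to 8265611, was listed in control cells at day 3 alone, with 66 tags and percentile 50.8. Just outside the window, the nearest LSD1 peaks of control and knockdown cells at day 0 lay 10043 and 10297 bp above its upper end.

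CCND1 had 5 regions, and each of the 3 LSD1 lists had a different set of them. A region from 69455318 to 69456464 was listed in control cells on both days. It had 31 tags, a fold of 9.99 and score percentile 71.8 at day 0, and 26 tags, a fold of 13.3 and percentile 18.2 at day 3, with summits 46 bp apart. A region from 69489764 to 69490515 was listed at day 0 in both kinds of cell and not at day 3. It had 36 tags, a fold of 7.03 and percentile 81.0 in control cells and 38 tags, a fold of 14.1 and percentile 85.1 in knockdown cells, where it was the highest scoring peak of all 5 windows. The summits lay 140 bp apart. LSD1 in control cells at day 3 also had peaks from 69449592 to 69450670, with 54 tags, a fold of 34.1 and percentile 80.5, and from 69515061 to 69516168, with 51 tags, a fold of 13.0 and percentile 56.3. Neither was in another list. The fold of 34.1 was the highest of all 12 day 3 LSD1 peaks in the windows.

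The SVIL peak at CCND1, from 69469936 to 69470191, was 256 bp long with 24 tags, a fold of 28.1 and score percentile 86.2 of the SVIL list. It overlapped no LSD1 or LSD1+8a peak, whereas 58.7% of all SVIL peaks overlapped an LSD1 peak of the same day. The share of 0 of 1 allows up to 97.5%. A SVIL peak was found in 5.2% of tiles of this width. The other windows had none, and SVIL peaks were found in 4.84% of tiles of the MYCN width, 6.36% of the LMO1 width, 9.43% of the LIN28B width and 7.87% of the BARD1 width. It lay between the LSD1 regions shared by both days and by both day 0 lists, at 70.1 kb from the lower end of the window, where those have their summits at 56.1 and 90.3 kb in control cells at day 0.

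MYCN had 3 regions, each in 1 list. LSD1 in control cells at day 0 had a peak from 16079543 to 16080364 with 21 tags, a fold of 5.84 and score percentile 11.4. At day 3 a peak from 16083239 to 16085107 had 65 tags, a fold of 10.6 and percentile 44.6, and another from 16121728 to 16123460 had 95 tags, a fold of 12.1 and percentile 27.6. The day 0 peak ended 2874 bp before the first day 3 peak, so LSD1 was listed near the same place on both days without overlap. All 3 MYCN peaks stood in the lower part of their lists by score and by fold, where they were at percentile 7.53, 8.84 and 16.9. The day 3 peaks were long, 1869 and 1733 bp, at length percentile 92.8 and 89.9.

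LIN28B had 3 regions, each in 1 list, with peaks of a different form from those of MYCN. LSD1 in control cells at day 0 had a peak from 105388786 to 105389544 with 18 tags, a fold of 15.2 and score percentile 53.5, and one from 105500087 to 105500568 with 12 tags, a fold of 11.2 and percentile 38.7. At day 3 the only peak was from 105514801 to 105515906, with 45 tags, a fold of 21.3 and percentile 70.0. By fold these peaks stood at percentile 89.4, 70.3 and 69.9, above all 3 MYCN peaks in the same lists, while their tags stood at percentile 25.2, 7.37 and 43.3. LIN28B peaks thus had few tags at a high fold. MYCN peaks had a low fold, with tags at percentile 35.4, 68.4 and 86. Each pattern rests on 3 peaks. The form was not particular to LIN28B, as the BARD1 peak of knockdown cells had tags at percentile 7.36 and a fold at percentile 66.2.

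BARD1 had 1 region, the peak of knockdown cells from 215674522 to 215675030, with 12 tags, a fold of 10.6 and score percentile 17.9. Control cells at day 0 had no peak within the window, and their nearest was 167 kb above it. Its region was in 1 list, as were 57.6% of all merged regions of the series.

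**Figure D3:**
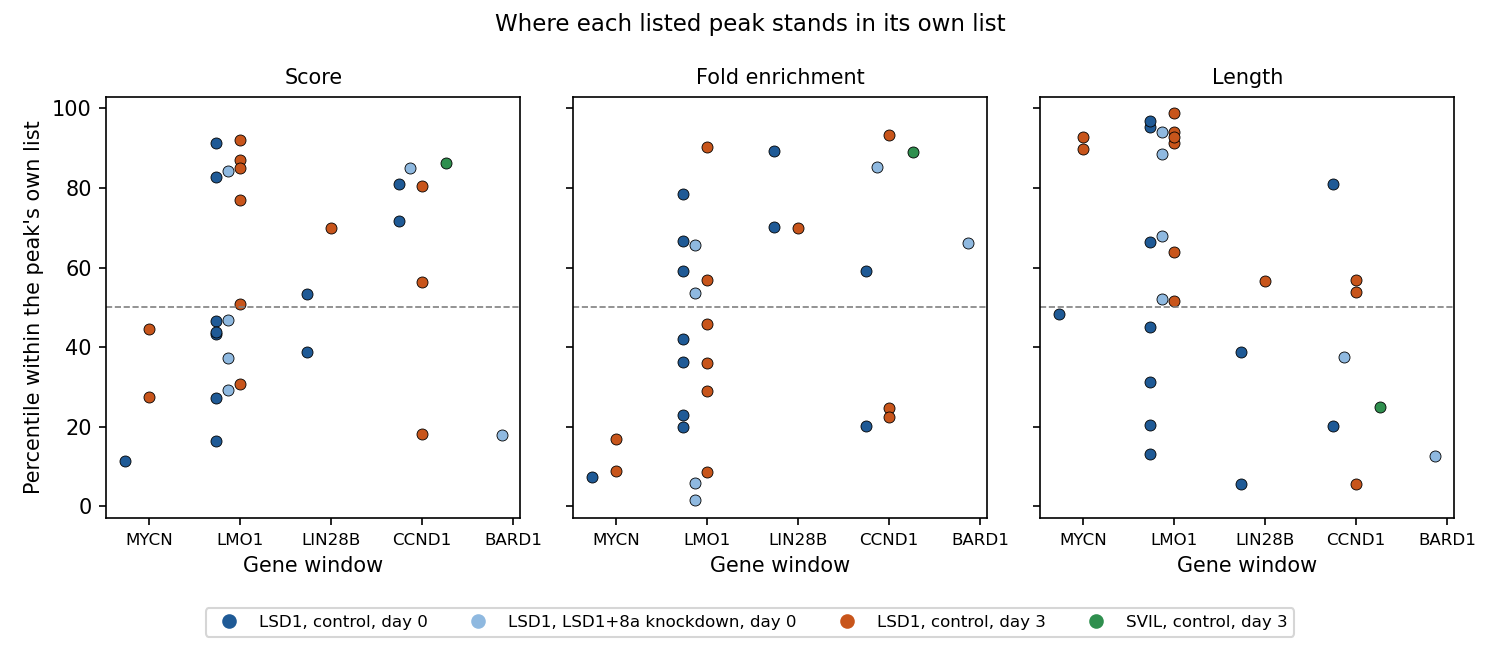
Percentile of each peak within its own list (y axis) for score, fold enrichment and length (panels), by gene window (x axis) and list (colour), with the dashed line at 50. MYCN peaks lie at fold percentile 16.9 or lower, LIN28B peaks at 69.9 or higher, and LMO1 peaks spread from 1.73 to 90.2.

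In score, the peaks of the windows spread over the range of their lists. The median score percentile was 45.1 for the 12 LSD1 peaks of control cells at day 0 (11.4 to 91.3), 42.1 for the 6 of knockdown cells (17.9 to 85.1) and 63.1 for the 12 of control cells at day 3 (18.2 to 92.1). In length, 5 of the 12 day 3 peaks were in the longest 10% of their list, all of them at MYCN or LMO1, as were 2 of 12 at day 0 and 1 of 6 in knockdown cells. This bound was chosen after the values were seen.

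Across days, 5 of the 12 LSD1 peaks of control cells at day 0 overlapped a day 3 peak (41.7%, 15.2 to 72.3), against 50.1% of all peaks of that list. Of the 12 day 3 peaks, 5 overlapped a day 0 peak (41.7%, 15.2 to 72.3), against 40.1%. LMO1 gave 4 of these overlaps in each direction and CCND1 gave 1. Without LMO1 the shares were 20% (1 of 5) and 16.7% (1 of 6). None came from MYCN or LIN28B, where 3 day 0 and 3 day 3 peaks lay apart. Between cells at day 0, 4 of the 12 control peaks overlapped a knockdown peak (33.3%, 9.92 to 65.1), against 42.1% of the list and 20% (1 of 5) without LMO1, and 4 of the 6 knockdown peaks overlapped a control peak (66.7%, 22.3 to 95.7), against 69.4%. Each share of the whole list lies inside the interval of the windows, so at these numbers no difference from the rest of the series was detectable.

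Of the 20 merged regions, 12 (60%) were in 1 list, 6 (30%) in 2 and 2 (10%) in 3, against 57.6% in 1, 26.6% in 2 and 15.7% in 3 or more over the series. The 12 in 1 list were 6 with LSD1 in control cells at day 3, 4 with LSD1 in control cells at day 0, 1 with LSD1 in knockdown cells and 1 with SVIL. Of the 8 regions in more than 1 list, 6 lay at LMO1 and 2 at CCND1.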

How the data were processed

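ChIP-seq peak lists of 5 libraries were analysed, 1 per group, which allows no test between conditions. Peaks were called by the authors for each ChIP library separately, and the names of the lists set each against input. The submitters' processing notes name CASAVA, Bowtie 1.0.0 and the builds hg19 and mm9, and the human lists were taken as hg19. Caller, threshold and the input sample of each list, not given in the sources used here, could change which peaks are listed. Per the file headers, tags are a raw count per peak. The fold enrichment deposited for each peak is a ratio, by the names of the lists against input, but how it was computed is not stated. The deposited score lost its column name and was used as a score without a unit, within a list only.

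A peak belonged to a window when at least 1 bp lay in it, and peaks overlapped when they shared at least 1 bp. Intervals were exact (Clopper-Pearson binomial or Poisson). Tiles of each window's width ran from the first to the last peak of a chromosome over all lists, without chromosome Y. All peaks in the windows are named. The genes, windows and comparisons were chosen with earlier results of these data known. Planned motif counts in promoters were not run, because peaks could not be placed against promoters of another build. The overlap functions were tested on simulated data. Python 3.11.15, pandas 2.3.3 and scipy 1.17.1 were used.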

Additional observations from a re-analysis of the deposited data

How the results depend on the processing

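Among peaks in the upper 50% of their list by score, the LSD1 peaks in the windows went from 12 to 5 in control cells at day 0. They went from 6 to 2 in knockdown cells, both by over 1.5 times, and from 12 to 8 in control cells at day 3. The cut removes the lower 50% of each list, so a fall of about that share is built in and says little about stability. Without the LMO1 window, an alternative chosen after seeing the data, LSD1 had 5 peaks in control cells at day 0, 2 in knockdown cells and 6 in control cells at day 3. Each is lower by over 1.5 times, which follows directly from the 7, 4 and 6 peaks that LMO1 held. With windows extended by 50 kb on each side, LSD1+8a had 1 peak. With as many top-scoring peaks as the shortest LSD1 list holds (10248), also chosen after seeing the data, control cells had 8 peaks on each day and knockdown cells 6. Taking summits in place of overlaps changed no count. Shares of overlapping peaks rest on 12 or fewer peaks, and their wide intervals say little about stability. For day 0 control peaks at day 3 the share was 41.7% and ran from 20% without LMO1 to 58.3% with edges at most 1 kb apart. For day 3 control peaks at day 0 it was 41.7% and ran from 16.7% without LMO1 to 50% with such edges. For control peaks in knockdown cells it was 33.3% and ran from 20% without LMO1, or in the upper 50% by score, to 50%. For knockdown peaks in control cells it was 66.7% and ran from 50% to 83.3%. The overlap across days thus rests mostly on LMO1. The share of LSD1+8a peaks at LSD1 could not be computed, because no LSD1+8a peak lay in the windows. No paired analysis was possible because each group is 1 library. Unknown read depth limits every comparison of numbers between lists.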

Other observations

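The only LSD1+8a peak within 50 kb of any of the windows lay below LIN28B, on chromosome 6 from 105307294 to 105308140, with 42 tags, a fold of 17.6 and score percentile 81.6 of its list. All 3 LSD1 lists had a peak that overlaps it. LSD1 had 26 tags at score percentile 68.4 in control cells at day 0, 32 tags at 71.9 in knockdown cells and 39 tags at 48.8 in control cells at day 3. None of the 3 regions inside the LIN28B window was in more than 1 list.

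Below MYCN, LSD1 in control cells had peaks on both days on chromosome 2, from 15982613 to 15983685 at day 0 with 43 tags and score percentile 7.84, and from 15982531 to 15983741 at day 3 with 100 tags and percentile 72.6. These peaks overlap, unlike the LSD1 peaks inside the MYCN window. Neither gene assignment nor promoter position was examined for these flanking peaks.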
